A study of Mus musculus with 12 samples.

Results

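The Toll-like receptor genes are described here in sorted mouse bone marrow cells across 3 cardiovascular conditions and naive controls. The 10 genes *Tlr1*, *Tlr2*, *Tlr3*, *Tlr4*, *Tlr5*, *Tlr6*, *Tlr7*, *Tlr8*, *Tlr9* and *Tlr13* were chosen by name and not by their values. Earlier results of these data were known at that choice. Each gene was matched by symbol to 1 Ensembl gene among the 55421 genes of the count table. All 10 had counts in every library, and 9 passed the filter on low counts and were tested among 15999 genes. *Tlr9* did not pass it and is given by its counts. No Toll-like receptor gene differed between any groups at an adjusted p under 0.05 in edgeR's quasi-likelihood test, so the results below are mainly levels, the order of those levels and the sizes of difference that the data allow.

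Toll-like receptors are membrane proteins with leucine-rich repeats that bind microbial molecules and a Toll/interleukin-1 receptor domain that recruits adaptors. Those at the cell surface bind lipopeptides, lipopolysaccharide or flagellin, whereas those in endosomes bind nucleic acids. Signalling through MyD88 or TRIF leads to NF-κB and interferon regulatory factors and to cytokine transcription, and in bone marrow the receptors are best known from monocytes, macrophages, dendritic cells and B cells, with some also present on endothelial cells.

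RNA was sequenced from cells sorted as bone marrow endothelial cells, with 1 library from each of 12 mice aged 20 weeks. Controls were 3 naive C57BL/6J mice, the hypertension group was 3 C57BL/6J mice infused with angiotensin II for 8 weeks, the atherosclerosis group was 3 mice of the strain Apoe(tm1Unc) fed a western diet for 10 weeks, and the MI group was 3 C57BL/6J mice after acute myocardial infarction. The labels place the MI cells at 2 days after infarction and the study's text at day 4, and no value below depends on which is right. The Apoe(tm1Unc) mice lack the gene in all cells and were the only group on the diet, so genotype and diet cannot be told apart. Whether mice with the same replicate number (2, 3 or 4) were handled together is not stated. *Apoe* was at 9.78, 7.28 and 14.8 CPM (counts scaled to library size) in the 3 atherosclerosis libraries and between 450 and 1503 CPM in the other 9, as labelled.

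Total counts per library ran from 17007088 to 25136936, and CPM values of genes are scaled by TMM. The summed CPM of marker lists and the CPM worth of 3 counts are scaled by total counts alone. The gate took TER-119-, CD41-, CD45-, CD31hi, SCA-1+ cells after lineage depletion. *Cdh5*, which encodes VE-cadherin, was nevertheless low, between 2.00 and 4.19 CPM, and *Pecam1*, the CD31 gene, was between 17.2 and 31.8 CPM. *Ptprc*, which encodes the leukocyte antigen CD45 that the gate excluded, was between 463 and 814 CPM, and *S100a8*, a neutrophil gene, between 1056 and 6883 CPM. *Csf1r*, a receptor of monocytes and macrophages, ranged from 70.5 to 170 CPM. In all 12 libraries leukocyte transcripts therefore exceeded those of defining endothelial genes, and Toll-like receptor RNA cannot be assigned to a cell type. In such bulk samples, fewer cells of a type and less RNA per cell cannot be told apart.

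In GRCm38, with GENCODE positions, 2 pairs of the genes are neighbours. *Tlr1* (chromosome 5, 64924679 to 64933563) and *Tlr6* (chromosome 5, 64952031 to 64960097) are both on the minus strand, 18.5 kb apart, and *Tlr8* (chromosome X, 167242696 to 167264329) and *Tlr7* (chromosome X, 167304929 to 167330558) are likewise neighbours on the minus strand, 40.6 kb apart. *Tlr13* is also on chromosome X, from 106143204 to 106160493. *Tlr3* overlaps the antisense gene *Gm45542* by 381 exon bases. The libraries were strand-specific, but which of the aligner's strand columns was taken is not stated, so reads of those bases may belong to either gene.

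Aligned over 2363 bases, the coding sequences of *Tlr1* and *Tlr6* were 74% identical, the highest identity of any pair of members, followed by *Tlr7* and *Tlr8* at 53.4%. Of all 50-base windows in *Tlr1* transcripts, the length of the sequenced reads, 15.4% also occurred in transcripts of other genes, and of those in *Tlr6* 12.3% did. *Tlr4* had 1 such window and the other 7 members had none. The counts hold uniquely aligned reads, so reads inside these windows were not counted for either gene, which lowers the counts of *Tlr1* and *Tlr6* relative to their length. The longest stretch identical between them, 229 bases inside both coding sequences, is shown as the longest piece of the pair in which reads cannot be told apart. It lies on the minus strand of chromosome 5 at 64925537 to 64925765 in *Tlr1* and at 64953828 to 64954056 in *Tlr6*.
Tlr1 and Tlr6: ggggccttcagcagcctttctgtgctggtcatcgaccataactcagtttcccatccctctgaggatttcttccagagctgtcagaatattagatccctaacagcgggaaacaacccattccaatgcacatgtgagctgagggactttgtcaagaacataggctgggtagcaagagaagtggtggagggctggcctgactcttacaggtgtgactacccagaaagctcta

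Promoter sequence from RefSeq (GRCm38.p6) was at hand for 8 members at 10 start sites. GAGGAA, the core letters bound by the myeloid factor PU.1, was searched on both strands in the 250 bases before each start. It occurred before a start of *Tlr1*, *Tlr8*, *Tlr9* and *Tlr13*, that is at 4 of 10 start sites, and in 23.3% of all 32851 promoters. GGGCGG, the GC box, occurred before *Tlr2* and *Tlr5* and in 32.7% of all promoters, and a loose NF-κB motif, GGG and CC with any 5 bases between them, occurred before *Tlr2*, *Tlr3*, *Tlr5* and *Tlr6* and in 45.8%. TATAAA was found before *Tlr6* and *Tlr8* and in 12.4%, and an interferon response motif, GAAA and GAAA with any 2 bases between them, before *Tlr6* and in 2.98%. The GC boxes of *Tlr2*, the NF-κB matches of *Tlr3* and the interferon response matches of *Tlr6* lay inside their gene as GENCODE places it. A match is a description of the letters and not a bound site. The sequences of the 2 genes with the highest levels and of the gene with the lowest level are shown for comparison, without bases that GENCODE places in an exon, and capitals mark GAGGAA. They come from chr3:83841768-83841858 (minus strand), chrX:106143025-106143203 (plus strand) and chr9:106222348-106222597 (plus strand).
Tlr2: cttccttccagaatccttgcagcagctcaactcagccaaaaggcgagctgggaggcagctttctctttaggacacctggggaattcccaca
Tlr13: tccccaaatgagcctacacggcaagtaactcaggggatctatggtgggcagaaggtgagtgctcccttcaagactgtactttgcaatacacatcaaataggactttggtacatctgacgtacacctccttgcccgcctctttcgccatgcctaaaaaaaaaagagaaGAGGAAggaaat
Tlr9: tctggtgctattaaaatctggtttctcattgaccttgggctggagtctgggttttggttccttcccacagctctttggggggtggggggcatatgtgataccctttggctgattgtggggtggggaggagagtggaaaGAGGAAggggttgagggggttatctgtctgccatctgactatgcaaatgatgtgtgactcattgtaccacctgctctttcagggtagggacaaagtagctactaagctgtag

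To compare levels between genes, CPM were divided by exon length in kb. In controls *Tlr2* stood highest at 14.8 ± 3.32 CPM per kb (SD, n = 3), followed by *Tlr13* at 9.66 ± 2.20. *Tlr4* at 2.97 ± 0.558, *Tlr6* at 2.74 ± 0.464, *Tlr7* at 2.57 ± 0.698, *Tlr8* at 1.58 ± 0.534 and *Tlr1* at 1.34 ± 0.0315 came next. Exon lengths were not corrected for the shared windows (15.4% in *Tlr1*, 12.3% in *Tlr6*), which lowers both levels. The places of *Tlr1* beside *Tlr8* and of *Tlr6* beside *Tlr4* are therefore not settled. *Tlr5* followed at 0.450 ± 0.0453, *Tlr3* at 0.188 ± 0.0538 and *Tlr9* at 0.0397 ± 0.0139. Neighbours from *Tlr4* down to *Tlr1* overlapped between libraries and so did *Tlr2* with *Tlr13*, whereas the steps from *Tlr13* to *Tlr4*, *Tlr1* to *Tlr5*, *Tlr5* to *Tlr3* and *Tlr3* to *Tlr9* did not overlap in controls.

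*Tlr2* exceeded *Tlr13* in 12 of 12 libraries, and the same 3 genes, *Tlr5*, *Tlr3* and *Tlr9*, held the last places in all 4 groups. The middle of the order varied. *Tlr7* took the third place in atherosclerosis at 3.49 ± 0.969 CPM per kb, whereas *Tlr6* took it in hypertension at 2.75 ± 0.330 and in MI at 3.01 ± 0.727, and these neighbours overlapped within each group. *Tlr2* and *Tlr13* together made up 57.1% to 70.1% of the summed per-kb level of the 10 genes, and the 5 surface receptors made up 53.8% to 66.1%. The sum itself was between 27.9 and 42.8 CPM per kb in 11 libraries and reached 52.1 in atherosclerosis replicate 4.

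**Figure D1:**
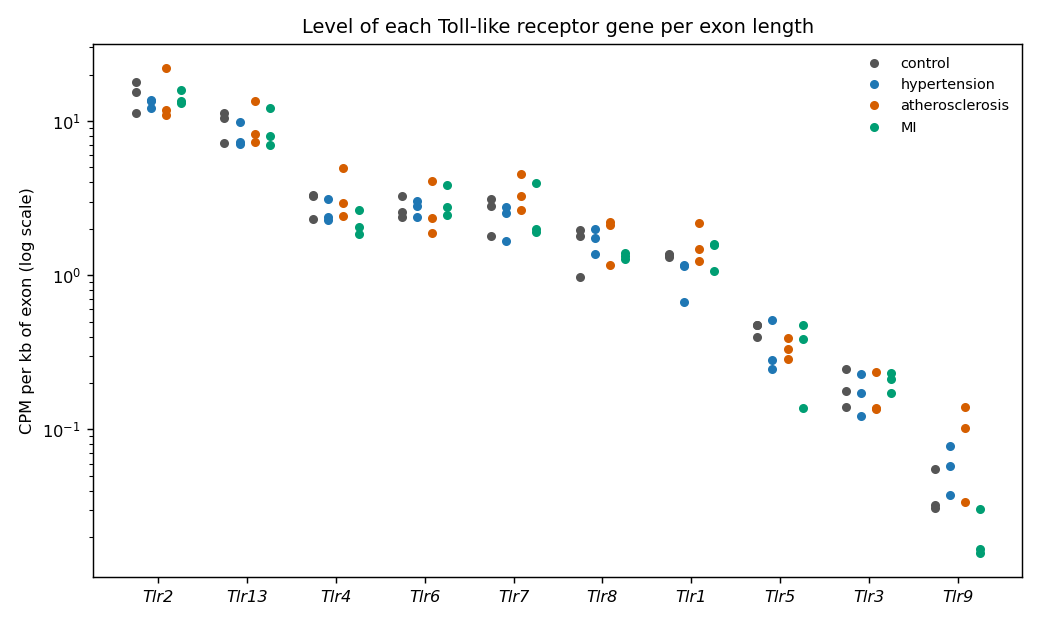
Level of each of the 10 Toll-like receptor genes in CPM per kb of exon (log axis), with 1 point for each of the 12 libraries, colored by group, and genes in the order of the control means. *Tlr2* and *Tlr13* lie above the other genes in all groups, and *Tlr5*, *Tlr3* and *Tlr9* below.

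Among the surface receptors, *Tlr2* binds lipopeptides as a heterodimer with *Tlr1* or *Tlr6*. *Tlr2* was at 34.0, 53.8 and 46.1 CPM in controls, 36.7, 40.9 and 41.2 in hypertension, 33.1, 35.7 and 66.3 in atherosclerosis and 39.5, 47.6 and 40.3 in MI. All groups overlapped, and the lowest and the highest value both fell in atherosclerosis. Per kb, *Tlr2* exceeded *Tlr1* by 8.04 to 20.3 times and *Tlr6* by 2.69 to 9.30 times across the 12 libraries. The shared windows of *Tlr1* and *Tlr6*, in which reads were not counted, raise both ratios.

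*Tlr1*, the partner for triacylated lipopeptides, was at 4.60, 4.39 and 4.50 CPM in controls, the narrowest spread of any member relative to its mean (2.35%). These values rested on 82, 81 and 116 counts, and 3 values at such counts cannot fix the spread of the gene. *Tlr1* was at 3.81, 3.90 and 2.25 in hypertension, where all 3 libraries lay below all controls, at 4.14, 4.93 and 7.28 in atherosclerosis and at 5.30, 3.55 and 5.27 in MI. The difference between hypertension and controls was −0.43 on the log2 scale (SE 0.287, 95% interval −1.05 to 0.19, adjusted p = 0.951, edgeR quasi-likelihood test), and 16.8% of all tested genes had non-overlapping groups in that comparison, 7.81% with hypertension below. *Tlr6*, the partner for diacylated lipopeptides, was at 8.91, 12.2 and 9.58 CPM in controls, 10.4, 8.93 and 11.4 in hypertension, 15.2, 7.05 and 8.81 in atherosclerosis and 14.3, 9.15 and 10.3 in MI. Its groups overlapped in every comparison.

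*Tlr4*, the receptor for lipopolysaccharide, was at 12.9, 18.5 and 18.2 CPM in controls. It was at 12.8, 17.3 and 13.3 in hypertension, 16.4, 13.5 and 27.4 in atherosclerosis and 10.3, 14.6 and 11.4 in MI, so that 2 MI libraries lay below all controls. In MI no member had all 3 libraries on 1 side of the controls, beside 8.86% of all genes. *Tlr4* had the smallest p of the members in MI against controls, with a log2 difference of −0.45 (SE 0.260, 95% interval −1.01 to 0.11, unadjusted p = 0.107, adjusted p = 1 in edgeR). *Tlr5*, the flagellin receptor, was at 1.91, 2.27 and 2.29 CPM in controls, 1.18, 1.36 and 2.45 in hypertension, 1.87, 1.59 and 1.38 in atherosclerosis and 0.662, 2.28 and 1.85 in MI. The 3 atherosclerosis libraries were below all controls, with a log2 difference of −0.42 (SE 0.407, 95% interval −1.30 to 0.46, adjusted p = 0.920, edgeR), and 9.51% of all tested genes had non-overlapping groups there. *Tlr5* rested on 12 to 59 counts per library.

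Of the endosomal receptors, *Tlr13*, which binds bacterial 23S ribosomal RNA, was the most abundant. It was at 30.8, 48.6 and 45.3 CPM in controls, 30.5, 42.6 and 31.5 in hypertension, 35.2, 31.3 and 57.6 in atherosclerosis and 52.2, 34.3 and 29.9 in MI. *Tlr7*, a receptor for single-stranded RNA, was at 7.29, 12.7 and 11.5 CPM in controls, 10.3, 11.3 and 6.81 in hypertension, 13.3, 10.9 and 18.6 in atherosclerosis and 16.2, 7.83 and 8.11 in MI. Atherosclerosis replicate 4 held the highest value of both genes, and MI replicate 2 the next highest. *Tlr7* had the smallest p of the members in atherosclerosis against controls, with a log2 difference of 0.44 (SE 0.324, 95% interval −0.26 to 1.14, unadjusted p = 0.199, adjusted p = 0.893, edgeR).

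*Tlr8*, the neighbour of *Tlr7* that also binds single-stranded RNA, was at 3.48, 7.04 and 6.48 CPM in controls, 4.95, 7.09 and 6.26 in hypertension, 7.92, 4.17 and 7.64 in atherosclerosis and 4.75, 5.03 and 4.58 in MI. The MI values were close together and lay inside the range of the controls. *Tlr3*, which binds double-stranded RNA and signals through TRIF, was near 1 CPM, at 0.729, 0.921 and 1.28 in controls, 0.636, 1.18 and 0.901 in hypertension, 0.712, 0.705 and 1.22 in atherosclerosis and 1.10, 0.900 and 1.22 in MI. *Tlr3* had 12 to 33 counts per library.

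*Tlr9*, the receptor for unmethylated CpG DNA, had 2, 2 and 5 counts in controls, 6, 3 and 4 in hypertension, 11, 2 and 7 in atherosclerosis and 1, 2 and 1 in MI. Because 3 counts were taken as the smallest amount measured, and 6 of the 12 libraries were at or under 2 counts, no fold is given. With no filter on low counts, the smallest adjusted p of *Tlr9* against controls was 0.874, in atherosclerosis, so a difference was not detectable at this depth.

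**Figure D2:**
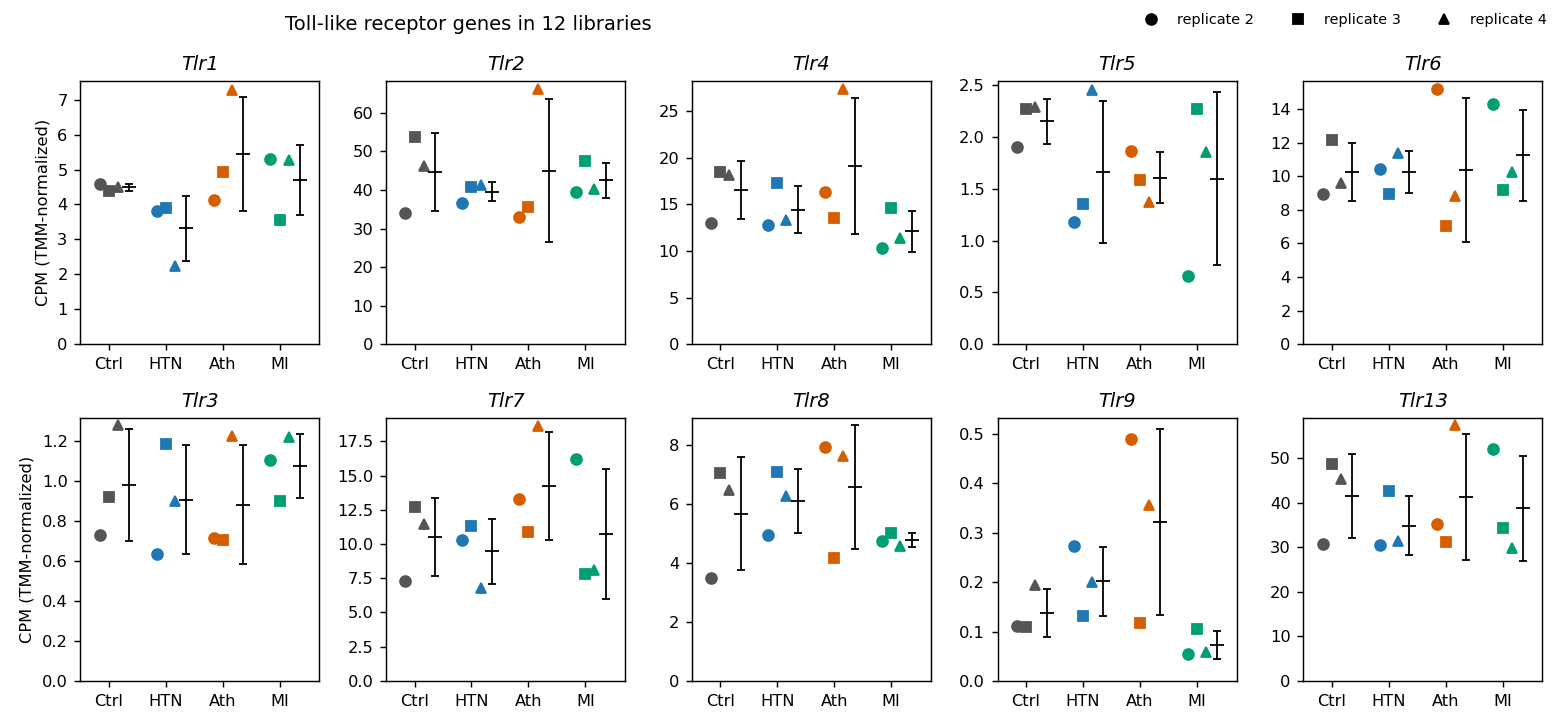
TMM-scaled CPM of each Toll-like receptor gene by group (Ctrl, controls; HTN, hypertension; Ath, atherosclerosis; MI), with surface receptors in the upper row and endosomal receptors in the lower. Each symbol is 1 library, its shape the replicate number, and black bars give the mean ± SD of 3 libraries; groups overlap in most panels, and atherosclerosis replicate 4 holds the highest value of *Tlr1*, *Tlr2*, *Tlr4*, *Tlr7* and *Tlr13*.

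The comparisons with controls ask which genes of sorted marrow cells change with each condition. In hypertension 2 of the 9 tested members were higher and 7 lower than controls, with a median log2 difference of −0.17 against −0.01 over all tested genes. In atherosclerosis 6 were higher and 3 lower, with a median of 0.02 against 0.01, and in MI 4 were higher and 5 lower, with a median of −0.07 against 0.00. Adjusted p was under 0.05 for 0 of 9 members in each of the 3 comparisons, beside 0% of all tested genes in hypertension, 0.144% in atherosclerosis and 0% in MI. Unadjusted p was under 0.05 for 0 of 9 members in each, by edgeR's quasi-likelihood test, by its likelihood-ratio test and by DESeq2, beside 3.71%, 5.97% and 2.8% of all genes in the first of these tests. The 3 comparisons share the control libraries. Some summed marker levels did not overlap with those of controls. The 13 neutrophil markers summed to 38343 to 54588 CPM in hypertension and 60356 to 79206 in controls, and 11 monocyte markers to 2029 to 2226 and 2264 to 2913 CPM. In atherosclerosis 14 macrophage markers summed to 950 to 1201 CPM and in controls to 639 to 800, and 12 plasmacytoid dendritic cell markers to 654 to 749 and 561 to 637 CPM. In MI 12 B cell markers summed to 204 to 452 CPM and in controls to 516 to 710. No marker of these lists was at 0 in all libraries. The sums of all other lists overlapped with controls, and no sum was tested. Of single genes, 16.8% in hypertension, 9.51% in atherosclerosis and 8.86% in MI did not overlap with controls. With monocyte markers as a covariate, the log2 difference in hypertension was 0.42 for *Tlr7* and 0.17 for *Tlr13*, in place of −0.15 and −0.25, and no member was called. The monocyte sums did not overlap between hypertension and controls, so this fit cannot separate the markers from the groups.

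What size of difference these libraries leave possible can be read from the intervals. Standard errors against controls ran from 0.243 for *Tlr2* to 0.409 for *Tlr5*, and the 95% interval lay between a halving and a doubling, that is between −1 and 1 on the log2 scale, for 7 of 9 members in each comparison. *Tlr2* had an interval of −0.70 to 0.35 in hypertension, −0.51 to 0.54 in atherosclerosis and −0.60 to 0.45 in MI. *Tlr13* had one of −0.84 to 0.33, −0.59 to 0.58 and −0.68 to 0.48. *Tlr5* had the widest, from −1.32 to 0.45 in MI.

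Atherosclerosis replicate 4 set part of these values. Without it, the log2 difference between atherosclerosis and controls was −0.38 for *Tlr2*, −0.15 for *Tlr4* and −0.32 for *Tlr13*, in place of 0.01, 0.21 and −0.01, and 0.20 for *Tlr7* in place of 0.44. Leaving out control replicate 2 gave 0.23 for *Tlr7*. In hypertension *Tlr1* was −0.22 without hypertension replicate 4, in place of −0.43. Atherosclerosis replicate 4 also had the highest *Csf1r*, at 170 CPM, and *Siglech*, a plasmacytoid dendritic cell gene, at 88.2 CPM. The marker sums differed in this. Its monocyte markers summed to 2401 CPM, below the 3332 of MI replicate 2. Its plasmacytoid dendritic cell markers summed to 673 CPM, below the 749 of atherosclerosis replicate 2. Its macrophage markers, at 1201 CPM, had the highest sum of any library. The part of these genes and markers in the receptor values was not tested.

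**Figure D3:**
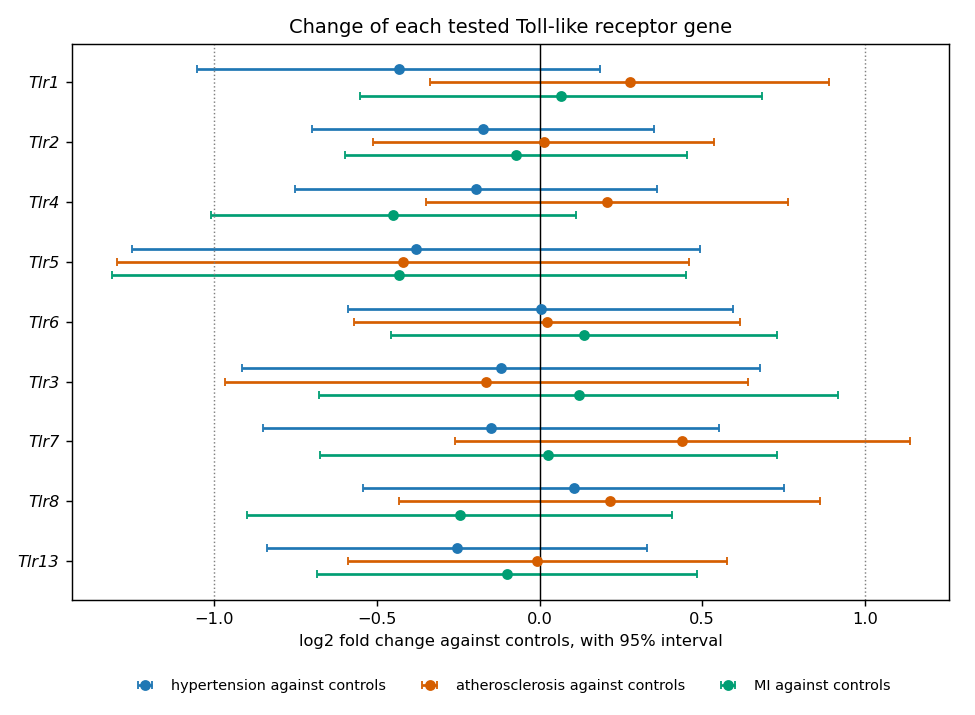
Log2 fold change of the 9 tested Toll-like receptor genes against controls in hypertension, atherosclerosis and MI, with 95% intervals from the edgeR fit; dotted lines mark a halving and a doubling. All 27 intervals include 0, and those of *Tlr5* reach furthest below −1.

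The same fit compared the disease groups pairwise. No member passed an adjusted p of 0.05, beside 0.0625% of all tested genes for atherosclerosis against hypertension, 0% for MI against hypertension and 0.269% for MI against atherosclerosis, and a test for any difference among the 4 groups called 0 of 9 members beside 0.144% of all genes. At an unadjusted p under 0.05, edgeR's quasi-likelihood and likelihood-ratio tests and DESeq2 each gave 1, 0, 1 and 0 members in these 4 tests, beside 5.94%, 8.41%, 12.7% and 7.48% of all genes in the first. *Tlr1* was higher in every atherosclerosis than in every hypertension library, with a log2 difference of 0.71 (SE 0.287, 95% interval 0.09 to 1.33, unadjusted p = 0.0277, adjusted p = 0.794, edgeR), where 10.9% of all genes had non-overlapping groups, 5.81% with atherosclerosis above. *Tlr4* was lower in MI than in atherosclerosis by a log2 value of −0.66 (SE 0.260, 95% interval −1.22 to −0.10, unadjusted p = 0.0251, adjusted p = 0.326, edgeR), with 1 MI library inside the atherosclerosis range. Neither difference held after adjustment. Without atherosclerosis replicate 4 the difference was 0.44 for *Tlr1* and −0.30 for *Tlr4*.

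Across the 12 libraries, the log2 CPM of members were positively correlated in 26 of 36 pairs. *Tlr7* and *Tlr13* correlated most, with Pearson's r = 0.825 (permutation p = 0.00088, Benjamini-Hochberg adjusted 0.0317 over 36 pairs) and Spearman's rho = 0.790 (permutation p = 0.00309, adjusted 0.111), and without the 2 libraries farthest from the median of *Tlr13* r was 0.635. *Tlr4* with *Tlr8* (r = 0.726, rho = 0.755, r = 0.819 without 2 libraries), *Tlr2* with *Tlr4* (r = 0.725, rho = 0.587, r = 0.494) and *Tlr2* with *Tlr13* (r = 0.704, rho = 0.545, r = 0.680) had an adjusted permutation p of 0.0800 each. After each group's mean was taken off, r was 0.895 for *Tlr7* with *Tlr13* and 0.889 for *Tlr2* with *Tlr4*. All points share the depth and makeup of their library, so these values describe the libraries.

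No member correlated with the summed CPM of a marker list at an adjusted permutation p under 0.05 (0 of 99 pairs of 9 members and 11 lists). The largest r were −0.707 for *Tlr8* with neutrophil markers (rho = −0.776, r = −0.685 without the 2 farthest libraries) and 0.700 for *Tlr8* with dendritic cell markers (rho = 0.790, r = 0.832), both with an adjusted permutation p of 0.349 for r and 0.212 for rho.

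**Figure D4:**
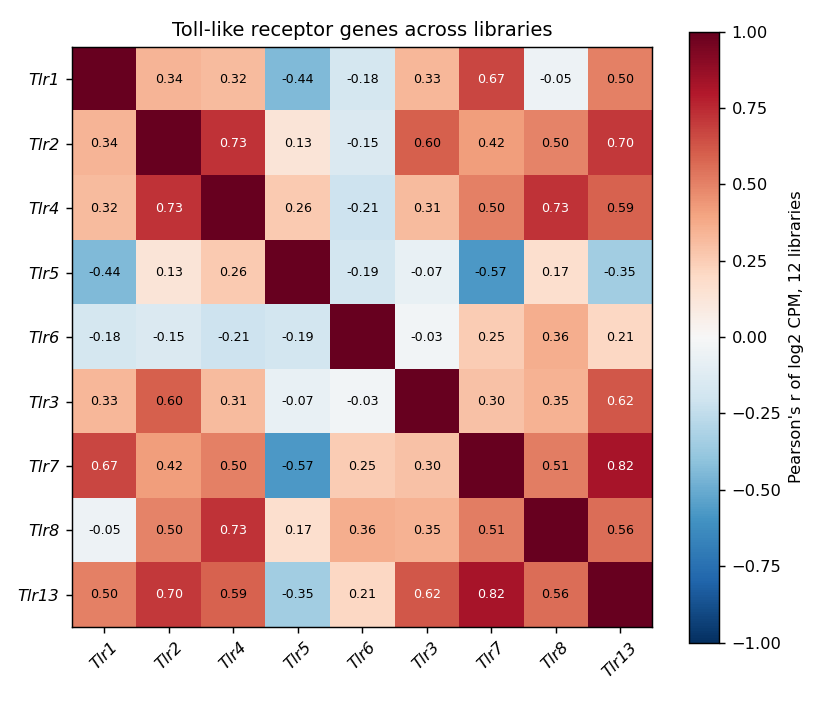
Pearson's r of log2 CPM between the 9 tested Toll-like receptor genes over the 12 libraries, with surface receptors first. The highest value is 0.82 for *Tlr7* with *Tlr13*, and *Tlr2*, *Tlr4*, *Tlr8* and *Tlr13* are positively correlated with each other.

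Among 13426 other genes of at least 1 CPM, the genes whose log2 CPM followed each member most closely over the 12 libraries were taken as a measure of likeness, with no test, since the best of many is high by choice. *Tlr4* was followed by *Tbc1d9b* (r = 0.975), *Zbtb2* (0.952) and *Itprip* (0.948), and *Tlr13* by *Tbc1d8* (0.960), *Sh2b3* (0.938) and *Zfp319* (0.937). *Tlr2* was followed by *Kctd10* (0.934), *Tnip1* (0.929) and *Tnfrsf1a* (0.925), *Tlr1* by *Tmem198b* (0.934), *Gpr132* (0.911) and *Itch* (0.910), and *Tlr6* by *A530010L16Rik* (0.909), *Mib1* (0.899) and *Cln6* (0.898). *Tlr7* was followed by *Tent4b* (0.931), *Scarb2* (0.914) and *Atp13a2* (0.892), and *Tlr8* by *Mapk14* (0.942), *Nckap1l* (0.940) and *Fbxo38* (0.939). The low-count genes *Tlr5* (*Stap1*, *Prdm10* and *Fnbp1l*, r from 0.913 to 0.929) and *Tlr3* (*Cep131*, *Ctnnb1* and *Nat8l*, r from 0.798 to 0.857) gave similar or lower values.

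Besides the members, 90 genes of the pathway were listed by role and 83 were tested. In edgeR's quasi-likelihood test 0 passed an adjusted p of 0.05 against controls, whereas its likelihood-ratio test and DESeq2 each called *Il6* (adjusted p = 0.00134 and 0.000429) and *Tnfaip3* (0.0298 and 0.0292) in atherosclerosis. Of all 15999 tested genes, the likelihood-ratio test and DESeq2 each called 81 there and the quasi-likelihood test 23. Unadjusted p was under 0.05 for 5 in hypertension, 5 in atherosclerosis and 6 in MI in the quasi-likelihood test, beside 3.71%, 5.97% and 2.8% of all genes, for 3, 8 and 5 in the likelihood-ratio test and for 5, 7 and 6 in DESeq2. In hypertension 30 were higher and 53 lower (median log2 difference −0.13), in atherosclerosis 53 higher and 30 lower (median 0.09), and in MI 29 higher and 54 lower (median −0.05). Over all tested genes, 48.1%, 51.9% and 50% were higher in these comparisons. In hypertension 5 pathway genes were above all controls in every library and 16 below, beside 9.02% and 7.81% of all genes. In atherosclerosis 9 were above and 1 below, beside 5.06% and 4.45%, and in MI 2 were above and 7 below, beside 4.27% and 4.59%.

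The remaining receptors of the mouse family are *Tlr11* and *Tlr12*, which bind profilin of parasites. *Tlr11* had 1 to 9 counts per library and was not tested. *Tlr12* was at 1.79, 2.17 and 2.56 CPM in controls, 1.73, 2.63 and 2.65 in hypertension, 3.34, 2.70 and 3.62 in atherosclerosis and 1.27, 0.953 and 1.39 in MI. All 3 MI libraries were below, and all 3 atherosclerosis libraries above, the other 2 groups. Of all tested genes, 5.06% had atherosclerosis wholly above controls and 4.59% had MI wholly below controls. The share of genes with the whole order of groups was not computed. *Tlr12* rested on 18 to 75 counts per library. The log2 difference was 0.10 in hypertension (unadjusted p = 0.732), 0.56 in atherosclerosis (unadjusted p = 0.0643) and −0.86 in MI (SE 0.293, unadjusted p = 0.0119), with an adjusted p of 0.976, 0.852 and 1, and MI against atherosclerosis gave −1.42 (SE 0.291, adjusted p = 0.0628, edgeR).

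Co-receptors and chaperones assist ligand binding and receptor transport. *Cd14*, which hands lipopolysaccharide to *Tlr4*, was at 102 to 154 CPM in controls and 254, 175 and 118 in MI (log2 difference 0.54, unadjusted p = 0.0487, adjusted p = 1). *Ly96*, which encodes the MD-2 subunit of the *Tlr4* complex, was between 2.45 and 6.06 CPM. *Cd36*, a scavenger receptor that assists *Tlr2*, had the smallest p of this role in hypertension, at 191, 187 and 183 CPM against 109, 88.0 and 149 in controls (log2 difference 0.70, SE 0.213, unadjusted p = 0.00602), and in atherosclerosis (0.51, unadjusted p = 0.0329). *Unc93b1*, which carries nucleic acid receptors to endosomes, was between 303 and 529 CPM, and the folding factor *Cnpy3* between 75.6 and 129 CPM. The smallest p of the trafficking and processing role was that of *Ap3b1* in hypertension (log2 difference −0.26), of *Lgmn*, a lysosomal protease, in atherosclerosis (0.73) and of *Slc15a4* in MI (−0.45), each with an unadjusted p over 0.05.

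Adaptors had a negative log2 difference from controls in hypertension in 5 of 5 tested genes and in MI in 4 of 5, none called. In each of these comparisons 2 adaptors had every library below all controls, beside 7.81% and 4.59% of all genes. *Myd88* was between 73.9 and 126 CPM, its sorting adaptor *Tirap* between 26.9 and 41.2, *Ticam1*, which encodes TRIF, between 6.90 and 12, and *Ticam2*, which encodes TRAM, between 7.86 and 14.1. *Ticam2* had a log2 difference of −0.45 in hypertension (unadjusted p = 0.0385) and −0.43 in MI (unadjusted p = 0.0439), and *Tirap* one of −0.24 in atherosclerosis (unadjusted p = 0.138). *Pik3ap1*, an adaptor to phosphoinositide 3-kinase, had −0.52 in MI (unadjusted p = 0.0210). Among kinases the smallest p was that of *Irak4* in hypertension (−0.35, unadjusted p = 0.0451), *Irak1* in atherosclerosis (1.15, unadjusted p = 0.0590) and *Irak2* in MI (−0.50, unadjusted p = 0.0549).

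The value of *Irak1* rested on few libraries. It was at 671 CPM in atherosclerosis replicate 2 and 377 in hypertension replicate 4, and between 113 and 192 CPM in the other 10. Without atherosclerosis replicate 2 its log2 difference in atherosclerosis was −0.19.

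Among transcription factors the smallest p in atherosclerosis was that of *Irf7*, a regulator of interferon genes, at 228, 172 and 213 CPM against 78.4, 88.4 and 105 in controls (log2 difference 1.17, SE 0.328, unadjusted p = 0.00335, adjusted p = 0.402). All 3 libraries were above all controls. *Tnfaip3*, which encodes the ubiquitin-editing inhibitor A20, was at 36.9, 50.9 and 62.9 CPM in atherosclerosis, 23.3, 26.7 and 31.1 in controls, 29.1, 22.6 and 27.7 in hypertension and 18.3, 25.9 and 20.6 in MI (atherosclerosis against controls 0.89, SE 0.206, unadjusted p = 0.000821, adjusted p = 0.205). In hypertension the smallest p of these roles was that of *Fos* (−0.37) and of the decoy receptor gene *Sigirr* (0.18), and in MI that of *Nfkb2* (−0.34) and *Otulin* (0.25), all with an unadjusted p over 0.05. *Irak3*, an inhibitor restricted mainly to myeloid cells, was between 59.2 and 110 CPM.

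Of the transcriptional targets, *Il6*, which encodes interleukin-6, was at 5.87, 5.70 and 5.76 CPM in atherosclerosis, 2.07, 1.79 and 1.75 in controls, 2.09, 3.68 and 3.66 in hypertension and 1.21, 2.80 and 2.49 in MI. *Il6* had the smallest p in atherosclerosis (log2 difference 1.63, adjusted p = 0.0973) and in hypertension (0.75, unadjusted p = 0.0358), and the chemokine gene *Ccl3* in MI (−0.56, unadjusted p = 0.0127). *Ccl3* was at 29.5, 32.8 and 23.4 CPM in MI and 30.7, 47.2 and 48.6 in controls. Neither passed the adjusted quasi-likelihood test; the likelihood-ratio test and DESeq2 called *Il6* in atherosclerosis, as given above.

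Between MI and atherosclerosis, 60 of the 83 pathway genes were lower in MI, with a median log2 difference of −0.24, and over all genes 47.7% were higher. Unadjusted p was under 0.05 for 17, beside 12.7% of all genes, and 1, *Tnfaip3*, passed the adjusted test (log2 difference −1.22, SE 0.208, adjusted p = 0.0345, edgeR). Its 3 MI libraries were below all atherosclerosis libraries, as in 7.44% of all genes. The call was lost in 18 of 26 alternatives, among them the replicate block (−1.20, adjusted p = 0.0573) and 11 of the 12 fits without 1 library, with log2 differences from −1.41 to −1.02 on leaving out a library. Of the 15 tested targets 13 were lower in MI, with a median of −0.49. In the same comparison the summed CPM of 12 B cell markers was 204 to 452 in MI and 492 to 751 in atherosclerosis, and that of 12 plasmacytoid dendritic cell markers 362 to 574 and 654 to 749. With these markers as a covariate, *Tnfaip3* had a log2 difference of −1.31 (adjusted p = 0.166, B cell) and −1.19 (adjusted p = 0.305, plasmacytoid dendritic cell). Neither marker sum overlapped between the groups, so these fits cannot separate the markers from the groups. The part of the markers in the other differences was not tested.

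**Figure D5:**
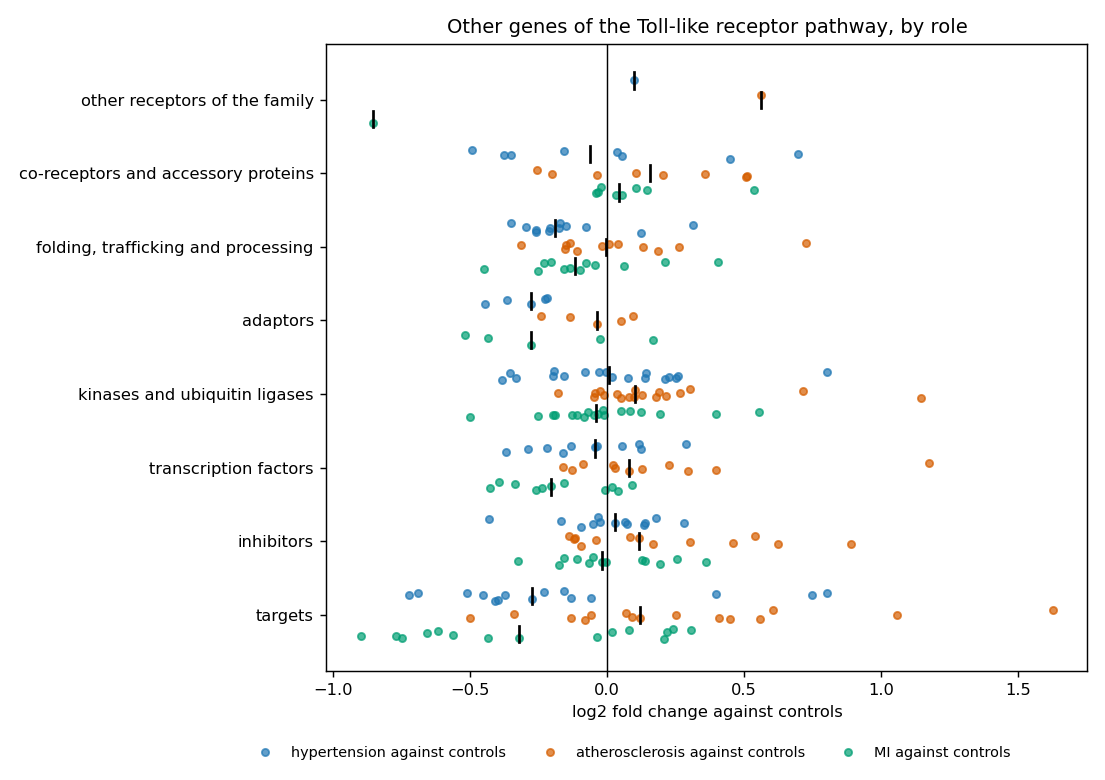
Log2 fold change against controls of the 83 tested pathway genes by role, with 1 point per gene and comparison and a black tick at each median. Most points lie between −1 and 1, and the points furthest right, in atherosclerosis, are *Il6* at 1.63, *Irf7* at 1.17 and *Irak1* at 1.15.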

How the data were processed

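RNA-seq counts from 12 libraries of sorted mouse bone marrow cells were used, with 3 mice in each of 4 groups taken from the labels. The deposited values are unnormalized counts for each Ensembl gene. The authors made them from 50-base single-end reads with STAR 2.7.3a (GRCm38.p6, Ensembl release 98), counting unique alignments per gene and pooling no mice. All 12 columns were used.

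Counts were filtered (filterByExpr), scaled by TMM and fitted in edgeR 4.0.16 (R 4.3.3) with 1 coefficient per group over all 12 libraries, leaving 8 residual degrees of freedom, and compared by two-sided glmQLFTest. Benjamini-Hochberg adjustment was over 15999 genes, with a threshold of 0.05. Log2 CPM for correlations used a prior count of 2 and permutation tests 100000 resamples. Exon lengths came from GENCODE M21, which held 55240 of the 55421 genes. The fitting steps were tested on simulated data. DESeq2 1.42.0 and edgeR's likelihood-ratio test, which the study names, were alternatives, as were other size factors, filters, a replicate block, marker covariates and leaving out each library.

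The members and lists were chosen with earlier results of these data known. Genes named are the members, the smallest p of each role and comparison, a fixed set of pathway genes, and the 3 genes most like each tested member. No pair of libraries agreed within sampling noise (lowest chi-square per degree of freedom 17.3).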

Additional observations from a re-analysis of the deposited data

Results flagged for a closer look

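Among the members and the listed pathway genes, 1 difference between disease groups passed the test of the difference itself. *Tnfaip3*, which encodes the inhibitor A20, was lower in MI than in atherosclerosis. The log2 difference was −1.22 (SE 0.208, adjusted p = 0.0345, edgeR quasi-likelihood test), beside 0.269% of all genes called in that comparison. All 3 MI libraries were below all 3 atherosclerosis libraries, as in 7.44% of all genes. The direction was the same in all 26 alternatives, but the adjusted p was under the threshold in 8 of them and not in 18, among them 11 of the 12 fits that left out a library. With no low-count filter, 432 of all genes were called in atherosclerosis against controls, in place of 23. The adjusted p of *Tnfaip3* ran from 1.8e-06 with no low-count filter to 0.305 with plasmacytoid dendritic cell markers as a covariate. The log2 difference in the latter fit was −1.19. These marker sums did not overlap between MI and atherosclerosis, so that fit cannot separate the markers from the groups. The summed CPM of 12 plasmacytoid dendritic cell markers was 362 to 574 in MI and 654 to 749 in atherosclerosis, and that of 14 macrophage markers was 595 to 852 in MI and 950 to 1201 in atherosclerosis, with no marker of either list at 0 in all libraries. *Siglech* was 25.9 to 36.6 CPM in MI and 49.4 to 88.2 in atherosclerosis. The adjusted p of *Tlr12* in the same comparison was 0.0628, and ran from 0.00332 with DESeq2 to 0.413 with plasmacytoid dendritic cell markers as a covariate (log2 difference −1.29).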

How the results depend on the processing

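In 26 alternatives, 0 members were called in each comparison with controls (lowest adjusted p 0.564 in hypertension, 0.514 in atherosclerosis and 0.600 in MI) and between disease groups (0.222, 0.443 and 0.138). Of 702 log2 differences of members, 66 changed sign, all in comparisons with an adjusted p over 0.05 in every alternative; the cause was not tested. Alternatives for pathway genes and for comparisons between disease groups were added after seeing the data.

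Replicate numbers are not shown to pair the mice: 5 of 18 correlations of same-numbered deviations were over 0.1 (range −0.282 to 0.296). With a replicate block, 0 members were called, *Tlr6* became −0.0204 in hypertension and −0.0477 in atherosclerosis, *Tlr2* −0.00601 in atherosclerosis and *Tlr7* −0.00298 in MI, and *Tnfaip3* in MI against atherosclerosis had an adjusted p of 0.0573.

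Signs also changed as follows. At least 10 counts in every library gave *Tlr13* 0.00201 in atherosclerosis, and fitting only the groups compared gave *Tlr13* 0.00175 there and *Tlr6* −0.00129 in hypertension. With monocyte markers as covariate, hypertension gave *Tlr3* 0.0124, *Tlr7* 0.42 and *Tlr13* 0.17, atherosclerosis *Tlr13* 0.26, and MI *Tlr1* −0.040, *Tlr6* −0.14 and *Tlr7* −0.38. Neutrophil markers gave *Tlr6* −0.31, *Tlr8* −0.27, *Tlr12* −0.13 and *Sigirr* −0.044 in hypertension, *Tlr2* −0.041, *Tlr6* −0.30, *Tlr8* −0.15, *Tlr13* 0.041 and *Irak1* −0.20 in atherosclerosis, and *Tlr1* −0.019 and *Tlr7* −0.051 in MI. B cell markers gave *Tlr2* −0.00501 in atherosclerosis and *Tlr1* −0.29, *Tlr3* −0.13, *Tlr5* 0.38, *Tlr7* −0.83 and *Cd14* −0.16 in MI. Plasmacytoid dendritic cell markers gave *Tlr2* −0.021 and *Tlr13* 0.19 in atherosclerosis and *Tlr1* −0.11, *Tlr5* 0.22 and *Tlr7* −0.50 in MI. Endothelial markers gave *Tlr3* 0.00119 and *Tlr6* −0.034 in hypertension and *Tlr2* −0.083 in atherosclerosis. Some of these marker sums did not overlap with controls: monocyte and neutrophil in hypertension, plasmacytoid dendritic cell in atherosclerosis and B cell in MI. There the fits cannot separate the markers from the groups.

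Leaving out each library in turn gave, in hypertension, −0.36 to 0.14 for *Tlr3*, −0.086 to 0.14 for *Tlr6*, −0.35 to 0.044 for *Tlr7*, −0.15 to 0.28 for *Tlr8* and −0.021 to 0.28 for *Tlr12*. In atherosclerosis it gave −0.38 to 0.21 for *Tlr2*, −0.48 to 0.10 for *Tlr3*, −0.15 to 0.40 for *Tlr4*, −0.35 to 0.23 for *Tlr6*, −0.039 to 0.45 for *Tlr8*, −0.32 to 0.16 for *Tlr13* and −0.19 to 1.53 for *Irak1*. In MI it gave −0.030 to 0.23 for *Tlr1*, −0.24 to 0.080 for *Tlr2*, −0.048 to 0.38 for *Tlr3*, −0.076 to 0.28 for *Tlr6*, −0.40 to 0.21 for *Tlr7* and −0.37 to 0.055 for *Tlr13*.

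Pathway genes called in atherosclerosis numbered 0 in the reported fit, 1 at an adjusted p under 0.1 (*Il6*), 2 by the likelihood-ratio test and 2 by DESeq2 (*Il6* and *Tnfaip3*), 1 with B cell markers (*Il6*), 7 with no low-count filter, and 0 to 2 on leaving out 1 library (1 without atherosclerosis replicate 2, *Tnfaip3*, and 2 without MI replicate 2, *Il6* and *Irf7*). With no low-count filter, 1 was called in hypertension (*Irak1*) and 1 in MI (*Ptgs2*). Of all 36003 genes tested without that filter, 432 were called in atherosclerosis, 170 in hypertension and 130 in MI. The reported fit called 23, 0 and 0 of 15999. In atherosclerosis the likelihood-ratio test and DESeq2 each called 81, the looser threshold 34 and the B cell covariate 27. Leaving out atherosclerosis replicate 2 called 34 genes there, and leaving out MI replicate 2 called 28. Depth limits *Tlr9*, *Tlr3* and *Tlr5* most, and 3 counts were worth 0.119 to 0.176 CPM.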
